A study of Sus scrofa with 6 samples.

Results

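The genes described here are the nuclear genes of the mitochondrial ribosome, of the translocases that import proteins into mitochondria, and of some of the factors that serve mitochondrial DNA, translation and protein quality, as measured in cerebral cortex from pigs at embryonic day 60 (E60) and embryonic day 80 (E80). Members were taken by gene symbol (MRPL and MRPS followed by a number, TOMM and TIMM, and 13 single genes), from probe sets with exactly 1 symbol in the annotation of the array, with the brightest probe set for each gene. This gave 83 genes of the 6765 that a single-symbol probe set represents. There are 36 MRPL genes of the large ribosomal subunit, 22 MRPS genes, 7 TOMM genes, 11 TIMM genes and 7 of the 13 single genes. The MRPS genes are named for the small subunit, but MRPS30 and MRPS36 belong elsewhere, as given below. GFM2, LRPPRC, TFB2M, PHB, CLPP and CLPX, the other 6, were not analysed here, and 6 probe sets that list MRPL22 or MRPL55 with more than 1 entry were left out by the rule.

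The study compared the cortex before folding (E60, 3 embryos) with the cortex after the first gyri had formed (E80, 3 embryos), to find genes whose expression changes over the time in which folding appears. Total RNA of each embryo was hybridised to 1 Affymetrix Pig Genome Array, arrays 1, 2 and 3 for E60 and arrays 4, 5 and 6 for E80. The embryos were neither treated nor genetically altered as far as the labels say, and breed and cortical region are not stated. The embryos are described as litter mates without the litter of each array, so litter and day cannot be told apart, and p-values measure the spread between these embryos.

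Mitochondria keep a small genome of their own, which encodes a few subunits of the respiratory chain together with the ribosomal and transfer RNAs needed to translate them. All proteins of the mitochondrial ribosome and nearly all other mitochondrial proteins are encoded in the nucleus, made in the cytosol and carried in through the TOM complex of the outer membrane and the TIM complexes of the inner membrane. Growing and maturing neurons depend on respiration, and inherited defects of several of these genes affect the brain.

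The values are MAS5 signals, 1 per probe set and array on a linear scale, which summarise the short probes of a set. The arrays had been scaled to a common level (trimmed mean 150.02 on each), and the median signal over all probe sets was 60.9 to 64.8 at E60 and 55.6 to 59.5 at E80. Differences are those of mean log2 signals, E80 minus E60, with a 95% interval from limma, and a gene is said to have risen or fallen when its Benjamini-Hochberg adjusted p, taken over 23999 probe sets, was under 0.05. As a check of the tissue, the summed signal of 8 measured neuronal markers was 15052 to 16071 at E60 and 17807 to 18930 at E80, and SNAP25 rose from 1342 to 1494 at E60 to 1929 to 2030 at E80 (adjusted p = 0.0342). Of the markers of radial glia and dividing progenitors 3 of 6 had fallen (PCNA, CCNB1 and TOP2A), and their summed signal went from 3091 to 3398 at E60 to 1929 to 2487 at E80. Of 7 astrocyte markers 3 had risen (GFAP, ALDOC and NDRG2), and of 7 oligodendrocyte markers 1 (OMG). None of the 3 microglial, 5 endothelial and 4 meningeal markers passed, with median differences of 1.25, -0.34 and -0.98, and the summed meningeal signal was 819 to 1291 at E60 and 332 to 847 at E80. Array 6 held a TTR signal of 4475, a marker of the choroid plexus, against 1.47 to 15.1 on the other arrays. The part of these markers in the differences below was not tested. In tissue of mixed cells such as this, fewer cells of a type and less RNA per cell cannot be told apart.

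None of the 83 genes rose or fell between E60 and E80 at the adjusted threshold in limma. Of all 23999 probe sets 1.95% passed (0.933% higher and 1.01% lower at E80), as did 2.54% of the brightest probe sets of the 6765 genes (1.49% higher and 1.05% lower) and 3.3% of the 5057 genes whose probe set was at least as bright as that of the dimmest member. The count of 0 thus stood against a low background. At an unadjusted p under 0.05 there were 8 members with a higher and 4 with a lower level at E80, together 14.5% of them. That share was 18% over all probe sets (7.12% higher and 10.8% lower), 20.7% over the 6765 genes (10.1% higher and 10.6% lower) and 24.9% over the 5057 brighter genes. All 3 arrays of one day lay above all 3 of the other in 24 members, 15 with E80 above and 9 with E80 below, which is 28.9% of them. Such a gap was found in 23.6% of all probe sets (9.25% above and 14.4% below), in 27.5% of the 6765 genes (12.8% and 14.7%) and in 31.7% of the 5057 brighter genes (14.7% and 17%). The members' share over both directions was near these backgrounds. By direction, 18.1% of the members had E80 above, more than in each background, and 10.8% had E80 below, less than in each. How this split depends on the scaling of the arrays was not counted.

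The intervals show how precisely each difference was measured, 1 gene at a time, on the brightest probe set and with the scaling as deposited. For all 83 members the 95% interval of the difference lay within 2-fold in both directions, which held for 59.2% of all probe sets, 73.9% of the 6765 genes and 89.5% of the 5057 brighter genes. In 59 members it lay within 1.5-fold in both directions, against 29% of all probe sets, 43.7% of the 6765 genes and 58.1% of the 5057 brighter genes. No member had an estimated difference beyond 1.5-fold, whereas 20.3% of all probe sets, 14.2% of the 6765 genes and 8.4% of the 5057 brighter genes did. The median difference of the members was 0.05 on the log2 scale, with the middle 50% from -0.07 to 0.19. The median was -0.05 over all probe sets, 0.00 over the brightest probe set of each gene and -0.0008 over the 5057 brighter genes. The difference was above 0 in 52 members and below 0 in 31, a share of 62.7% against 44.3% of all probe sets and 49.9% of the 6765 genes. This split depends on the scaling of the arrays. With the median of each array set to a common value, the median over all probe sets moved from -0.05 to 0.06 and that of the members to 0.16, with 67 members above 0. The members' median less that of all probe sets was 0.10 as reported, and 0.07 to 0.16 over the alternatives, with the highest value without array 3.

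**Figure D1:**
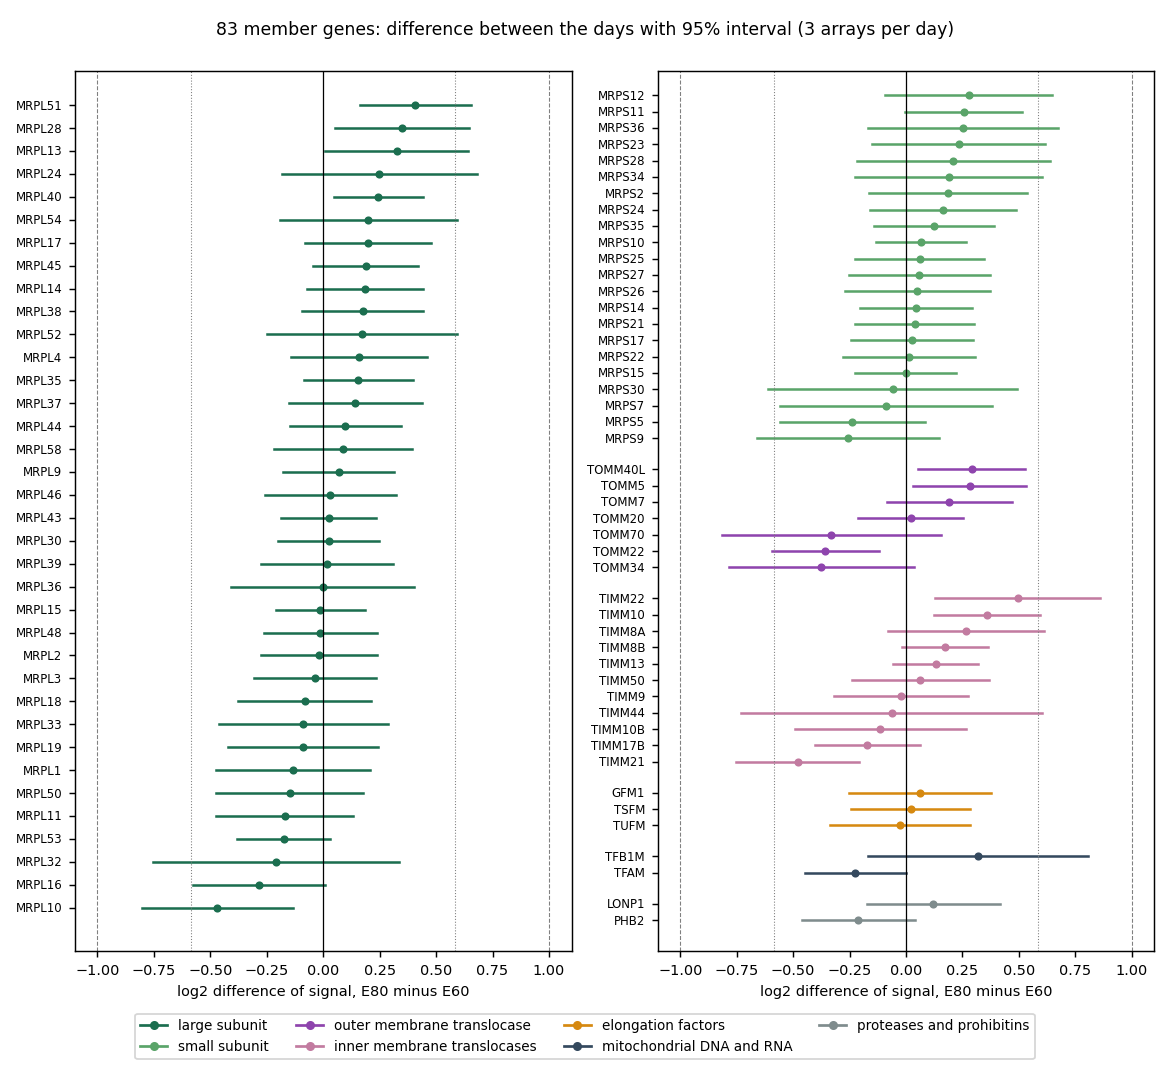
Difference of the log2 signal between the days (horizontal axis, E80 minus E60) for each of the 83 member genes, with its 95% interval from limma over 3 arrays per day, coloured by the role of the gene. Dotted lines mark 1.5-fold and dashed lines 2-fold in either direction: no interval reaches 2-fold, and 59 of the 83 stay inside 1.5-fold.

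The large subunit of the mitochondrial ribosome carries the site where peptide bonds are made. Of its 36 measured MRPL genes 21 had a difference above 0 and 15 below, with a median of 0.03, and none passed the test. MRPL51, a protein of the large subunit, had signals of 249, 269.9 and 243 at E60 and 304, 341 and 367 at E80. The days did not overlap, and the log2 difference was 0.41 (95% interval 0.16 to 0.65, adjusted p = 0.0979). MRPL10, which anchors the stalk where elongation factors bind, had signals of 209, 183 and 255 at E60 and 167, 155 and 142 at E80. All 3 arrays at E80 lay below those at E60, with a log2 difference of -0.47 (95% interval -0.80 to -0.13, adjusted p = 0.144). MRPL51 and MRPL10 thus had the highest and the lowest difference among the 36 MRPL genes.

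MRPL40 was measured with little spread at E60, where its signals were 349, 344 and 351, and stood at 417, 395 and 425 at E80. Its difference was 0.24 (95% interval 0.05 to 0.44, adjusted p = 0.184), with E80 above E60 on each array. For MRPL28 the signals were 304, 338 and 404 at E60 and 406, 434 and 486 at E80, so that the highest array of E60 nearly met the lowest of E80. For MRPL13, a core protein of the subunit, they were 164, 163 and 159.7 at E60 and 186, 246 and 184 at E80, where array 5 stood above the other two. These 3 genes, MRPL51 and MRPL10 are the members of the subunit with an unadjusted p under 0.05. That p was met by 20.7% of the 6765 genes. In 28 of the 36 genes the interval lay within 1.5-fold in both directions, against 58.1% of the 5057 brighter genes. Some genes were close to equal on the days. MRPL15 had mean signals of 525 ± 29.8 (SD, n = 3) and 519 ± 12.1 (SD, n = 3), and its interval ran from -0.21 to 0.18.

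The small subunit binds the messenger RNA and reads its codons. Among the 22 MRPS genes 17 had a difference above 0 and 5 below, where 49.9% of the 6765 genes were above 0. The 22 had a median of 0.06 and a range of -0.26 to 0.28. On the brightest probe sets not 1 of the 22 had an unadjusted p under 0.05, against 20.7% of the 6765 genes. MRPS11, a protein of the platform of the subunit, had signals of 251, 285 and 280.2 at E60 and 349, 340.0 and 288 at E80, which did not overlap, although the lowest array of E80 was close to the highest of E60. The difference was 0.26 (standard error 0.11, adjusted p = 0.284). MRPS12, which lies at the decoding centre, had signals of 109, 133 and 100.3 at E60 and 147, 149.8 and 117 at E80, and its days overlapped (adjusted p = 0.415). MRPS5, at the entry of the messenger RNA, had 114, 137 and 114 at E60 and 100.04, 113 and 96.8 at E80, a difference of -0.24 (standard error 0.14, adjusted p = 0.42). MRPS15 was as good as equal, with mean signals of 372 ± 26.9 (SD, n = 3) and 371 ± 16.6 (SD, n = 3). A pair of symbols in the group stand for proteins that belong elsewhere. MRPS30 is a protein of the large subunit (difference -0.06, 95% interval -0.61 to 0.49), and MRPS36 is known as a part of the oxoglutarate dehydrogenase complex (difference 0.25, 95% interval -0.17 to 0.68).

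The TOM complex is the gate through which nearly all imported proteins pass. Of the 7 TOMM genes 4 had a difference above 0 and 3 below, and none passed the test. TOMM22, the central receptor that holds the complex together, had signals of 791, 840.1 and 843 at E60 and 651, 718 and 569.9 at E80. Each array of E80 was below each of E60, with a log2 difference of -0.36 (95% interval -0.59 to -0.12, adjusted p = 0.121). TOMM20, the receptor for presequences, had 1123, 1238 and 1111 at E60 and 1087, 1323 and 1122 at E80. Its days overlapped fully, and the difference was 0.02 (95% interval -0.21 to 0.25). The receptor TOMM70, which takes up carrier proteins from chaperones, had 165, 162 and 98.4 at E60 and 98.6, 118 and 114 at E80, where array 3 of E60 lay with E80.

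The TOMM genes not yet described went both ways, with TOMM40L, TOMM5 and TOMM7 above 0 and TOMM34 below. TOMM40L, a relative of the pore protein TOMM40, had signals of 315, 297 and 271 at E60 and 379, 367 and 334 at E80 (difference 0.29, adjusted p = 0.189). The small subunit TOMM5 had 317, 333 and 365 at E60 and 367, 425 and 442 at E80 (difference 0.28, adjusted p = 0.225). In both genes E80 lay above E60 on all arrays, for TOMM5 by a gap from 365 to 367. TOMM34, a cochaperone of the cytosol in spite of its name, had 52.3, 64.1 and 64.7 at E60 and 45.9, 44.2 and 49.0 at E80 (difference -0.38, adjusted p = 0.319).

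Of the 11 TIMM genes 6 had a difference above 0 and 5 below, and they held both the highest and the lowest difference of all 83 members with all arrays in. TIMM22, the channel through which carrier proteins enter the inner membrane, had signals of 141, 194 and 213 at E60 and 245, 255 and 261 at E80. The 3 arrays of E80 were close together and above all of E60, which were more spread, and the difference was 0.49 (95% interval 0.13 to 0.86, adjusted p = 0.155). Without array 1 it was 0.32, below the 0.39 of MRPL51. TIMM21, which links the presequence translocase TIM23 to the TOM complex and to the respiratory chain, had signals of 187, 185 and 168 at E60 and 121, 141 and 125 at E80. E80 lay below E60 on every array, with a difference of -0.48 (95% interval -0.75 to -0.21), and its adjusted p of 0.085 was the smallest among the members.

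The small TIM proteins are chaperones that carry hydrophobic proteins across the space between the membranes. TIMM10 had signals of 251, 289 and 299 at E60 and 359, 366 and 349 at E80, which did not overlap (difference 0.36, 95% interval 0.13 to 0.59, adjusted p = 0.115). TIMM9, with which TIMM10 forms a ring, had 246, 266 and 301 at E60 and 239, 305 and 258 at E80. Its days overlapped, and the difference was -0.02 (95% interval -0.32 to 0.28). The difference between TIMM10 and TIMM9 was not tested. TIMM8A, the gene of a syndrome of deafness and dystonia, had 159, 162 and 149 at E60 and 182, 231 and 159 at E80, with array 5 above the rest.

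**Figure D2:**
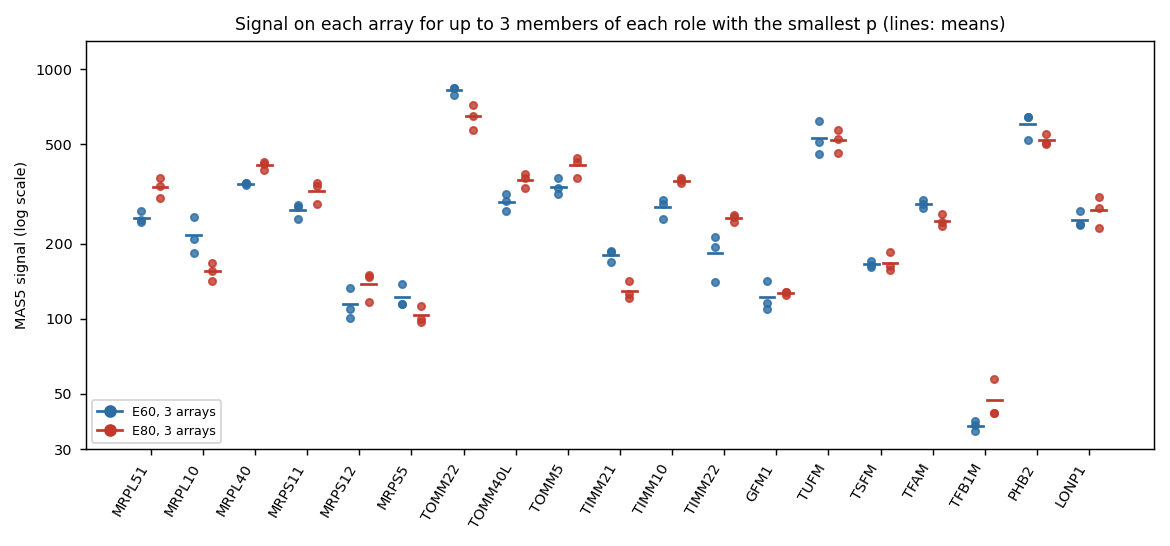
MAS5 signal on each array (vertical axis, log scale) for the members of each role with the smallest p, up to 3 a role, at E60 (blue) and E80 (red), where points are single arrays and lines are means of 3. The days lie apart without overlap for TIMM21, TIMM10 and TIMM22, and overlap for GFM1, TUFM and TSFM.

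The factors that drive elongation on the mitochondrial ribosome were near equal on the days. TUFM, which brings aminoacyl transfer RNA to the ribosome, had signals of 457, 511 and 622 at E60 and 569, 462 and 523 at E80, a difference of -0.03 (95% interval -0.34 to 0.28). For its exchange factor TSFM the signals were 171, 164 and 161 at E60 and 162, 185 and 157 at E80, with an interval of -0.24 to 0.28. The translocation factor GFM1 had 142, 116 and 109 at E60 and 128, 128 and 125 at E80, with an interval of -0.25 to 0.38. In all 3 genes the days overlapped, and each interval lay inside 1.5-fold. The prohibitin PHB2, a scaffold of the inner membrane, had a difference of -0.21 (95% interval -0.46 to 0.04), and the matrix protease LONP1 of 0.12 (95% interval -0.17 to 0.42).

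TFAM, which packs mitochondrial DNA and starts its transcription, is read by 4 probe sets, and 3 of them had a lower mean log2 signal at E80. On the brightest the signals were 289, 300.1 and 277 at E60 and 235, 262 and 245 at E80, without overlap, a difference of -0.22 (standard error 0.10, adjusted p = 0.275). On the second brightest they were 121, 119.8 and 104 at E60 and 67.8, 77.4 and 69.2 at E80. That difference, -0.68 (95% interval -1.01 to -0.36, adjusted p = 0.0542), had the smallest adjusted p of all 109 member probe sets, and it did not pass. The other pair of TFAM probe sets had differences of -0.33 and 0.04, with days that overlapped. TFB1M, which methylates the RNA of the small subunit, had signals of 35.4, 39.0 and 37.6 at E60 and 57.4, 42.0 and 41.8 at E80. Its difference of 0.32 (95% interval -0.17 to 0.81) came with a signal on array 4 well above those on arrays 5 and 6.

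Of the 83 genes 18 have several probe sets, 44 in all, and the probe sets of a gene did not always go the same way. Their differences had 1 sign in 8 genes and both signs in 10. In several of the 10 the signs parted on a dim probe set, such as that of TIMM10B at 0.873 to 6.52. In others they parted on differences near 0, such as 0.02 and -0.06 for MRPL43. MRPL3, a core protein of the large subunit, had a pair of bright probe sets that shared a sign but differed in size. Its brightest probe set had signals of 384, 400.0 and 377 at E60 and 335, 442 and 362 at E80, a difference of -0.04. A second, of similar brightness, had 400.2, 407 and 412 at E60 and 280.5, 350.4 and 269.5 at E80, without overlap, a difference of -0.45 (95% interval -0.72 to -0.18, adjusted p = 0.0979). The last was dim, at 19.1 to 26.4, with a difference of 0.24. MRPS9, of the small subunit, has a pair of probe sets of like brightness. The one used had a difference of -0.26 with days that overlapped, and the other, with 105.6, 130.5 and 100.1 at E60 and 70.4, 97.7 and 79.6 at E80, one of -0.44 (95% interval -0.85 to -0.04, adjusted p = 0.239) without overlap. The highest difference on any member probe set, 1.73 for MRPL15, belonged to a dim one with signals of 2.47 to 24.96 on the 6 arrays and an interval of -0.01 to 3.47.

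**Figure D3:**
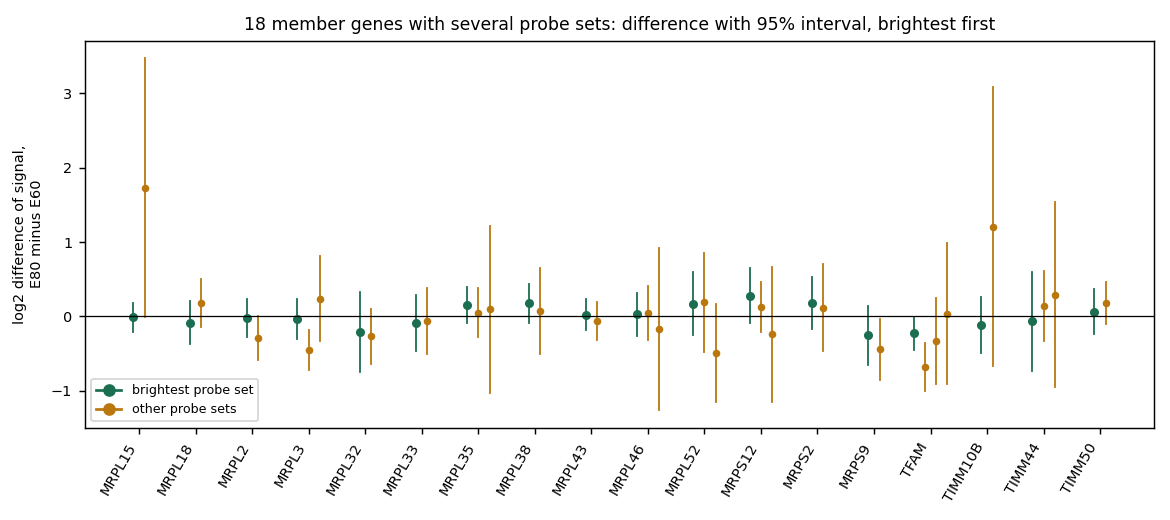
Log2 difference between the days (vertical axis, E80 minus E60) with its 95% interval for every probe set of the 18 member genes that have several, from the brightest (green) to the dimmest (brown, left to right). The widest intervals belong to dim probe sets such as that of MRPL15, and for TFAM and MRPL3 a less bright probe set lies below the brightest.

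The members' levels also shifted from array to array within a day. Within E80, 63 of the 83 had a log2 signal on array 5 above the mean of their 3 arrays, against 23 on array 4 and 33 on array 6. Over the 5057 genes at least as bright as the dimmest member, 55.1% were above the mean of their day on array 5, 44.3% on array 4 and 51.2% on array 6. The members' median deviation was 0.08 for array 5, against -0.05 for array 4 and -0.04 for array 6. For these 5057 genes the medians were 0.02, -0.02 and 0.00. Array 5 held the highest of the 6 signals in 32 members and the lowest in 2, counts that were not made over all genes. Array 5 also stood apart within E80 in some markers of the meninges and vessels. DCN had 305 on it against 111 and 73.0 on arrays 4 and 6, COL1A2 290.0 against 167 and 146, LUM 196 against 90.4 and 71.1, and CDH5 157 against 101.3 and 99.6. CLDN5 and VWF were also highest on array 5 within E80. COL3A1, KDR and PECAM1, the other measured markers of these groups, were not. COL3A1 had 56.1 on array 5 against 61.1 and 42.3 on arrays 4 and 6, KDR 21.3 against 21.4 and 6.52, and PECAM1 95.4 against 112 and 111. Against the E60 mean, the median of the neuronal markers was 0.34, 0.14 and 0.28 on arrays 4, 5 and 6. That of the progenitor markers was -0.74, -0.52 and -0.62. The part of these markers in the members' shift was not tested. At E60 the medians were -0.03, 0.03 and 0.02 on arrays 1, 2 and 3. These shifts within a day are of the size of the difference between the days. Set against the E60 mean, the members' median stood at 0.02 for array 4, at 0.16 for array 5 and at 0.00 for array 6. Without array 5, 45 members were above 0 and 38 below. The median spread of a member within a day was 0.14 (SD of log2 signals), beside 0.16 for the 5057 genes.

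**Figure D4:**
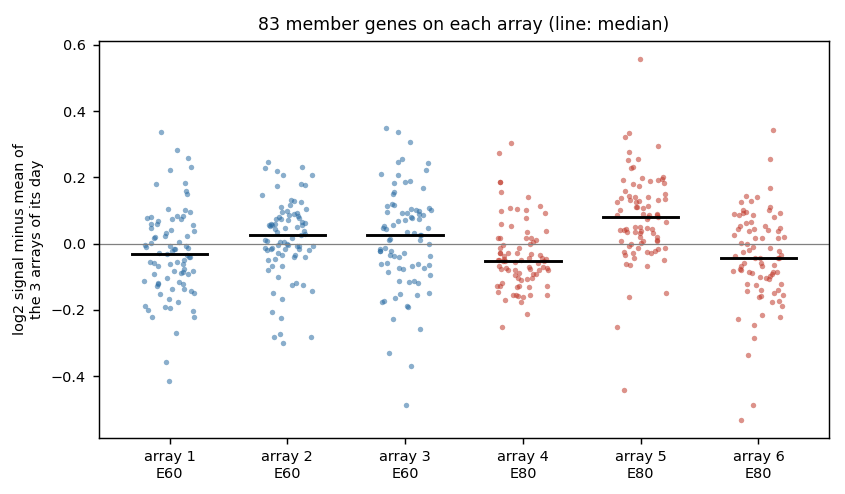
Deviation of the log2 signal of each of the 83 members from the mean of the 3 arrays of its day (vertical axis) on each array, with E60 in blue and E80 in red and the median as a line. On array 5 most points lie above 0, with a median of 0.08, while the medians of arrays 4 and 6 lie below 0.

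Other nuclear genes of the same processes were looked up from 4 lists, of mitochondrial translation and ribosome assembly, import and folding, mitochondrial DNA and RNA, and quality control. Among 57 measured genes that are not members, 1 fell, none rose, and the median difference was -0.07. A single call among 57 is near the background of 1.95% of all probe sets and 2.54% of the 6765 genes. The gene that fell was MTERF3, of the family of mitochondrial transcription termination factors, which acts in assembly of the mitochondrial ribosome. Its signals were 203, 192 and 171 at E60 and 115, 122 and 123 at E80, so that the days were far apart. The log2 difference was -0.65 (95% interval -0.92 to -0.37, adjusted p = 0.0391), a level at E80 of 0.638 times that at E60. With each array left out the difference was -0.72 to -0.59. It missed the threshold without array 5 (adjusted p = 0.0665) or array 6 (0.0830), and without array 1, 2 or 4 (0.150 to 0.158), where 1 of all 23999 probe sets passed, so that the missed call there says little about MTERF3. Markers of dividing progenitors were lower at E80 on the same arrays, as given above, and their part in this difference was not tested. A further probe set of MTERF3 was at 0.527 to 3.69 on all arrays and had days that overlapped.

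By list, 9 of 22 genes of translation had a difference above 0, with a median of -0.04. Of the 17 of import and folding 8 were above 0. None of the 17, the chaperones HSPD1, HSPE1 and HSPA9 included, had an unadjusted p under 0.05, against 20.7% of the 6765 genes. Of 10 genes of mitochondrial DNA and RNA 4 were above 0. The lowest of them was MTPAP, the polymerase that adds poly(A) to mitochondrial RNA, with 89.9, 93.7 and 84.5 at E60 and 58.6, 62.6 and 67.4 at E80 (difference -0.51, adjusted p = 0.12). Of 8 proteases and other quality control genes 1 was above 0 and 7 below, with a median of -0.23. YME1L1, a protease of the mitochondrial inner membrane, had 596, 619 and 555 at E60 and 442, 483 and 419 at E80 (difference -0.40, adjusted p = 0.0763). Both MTPAP and YME1L1 kept the days apart without passing the test. At an unadjusted p under 0.05, 3 of the 57 genes were lower at E80 (MTERF3, MTPAP and YME1L1) and 3 higher. Those shares were 10.6% and 10.1% over the 6765 genes. The higher ones were MRRF (difference 0.40, adjusted p = 0.276), NIPSNAP1 (0.27, adjusted p = 0.257) and NARS2 (0.94, adjusted p = 0.255). NARS2 was dim, at 4.96 to 13.1.

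A short list holds abundant mitochondrial proteins. All 9 of its genes (the porins VDAC1, VDAC2 and VDAC3, the carriers SLC25A3, SLC25A4, SLC25A5 and SLC25A6, citrate synthase CS and the chaperone HSPA9, which stands in the import list too) had a difference above 0, with a median of 0.20 and a range of 0.11 to 0.45, beside 49.9% of the 6765 genes above 0. All 8 neuronal markers lay above 0 too, with a median of 0.21, and their part in this was not tested. None of the 9 passed the test. The ATP and ADP carrier SLC25A5 had signals of 382, 337 and 347 at E60 and 492, 443 and 527 at E80 (difference 0.45, 95% interval 0.22 to 0.69, adjusted p = 0.0675). It passed only with median centring or with the brightest 66% of probe sets, of the alternatives run. VDAC2 had 1063, 1155 and 1125 at E60 and 1301, 1347 and 1277 at E80 (difference 0.23, adjusted p = 0.17). For both genes every array of E80 was above every array of E60. Among 6 measured nuclear regulators of mitochondrial genes none passed, and 5 had a difference below 0. The transcription factor CREB1 had 56.6, 64.4 and 40.7 at E60 and 16.0, 43.2 and 30.03 at E80, with days that overlapped and a difference of -0.95 (95% interval -1.81 to -0.09, adjusted p = 0.236), and it was the only regulator with an unadjusted p under 0.05. The coactivator PPARGC1A had a difference of 0.31 (95% interval -0.13 to 0.74), and MYC, which drives growth and ribosome genes, of -0.05.

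**Figure D5:**
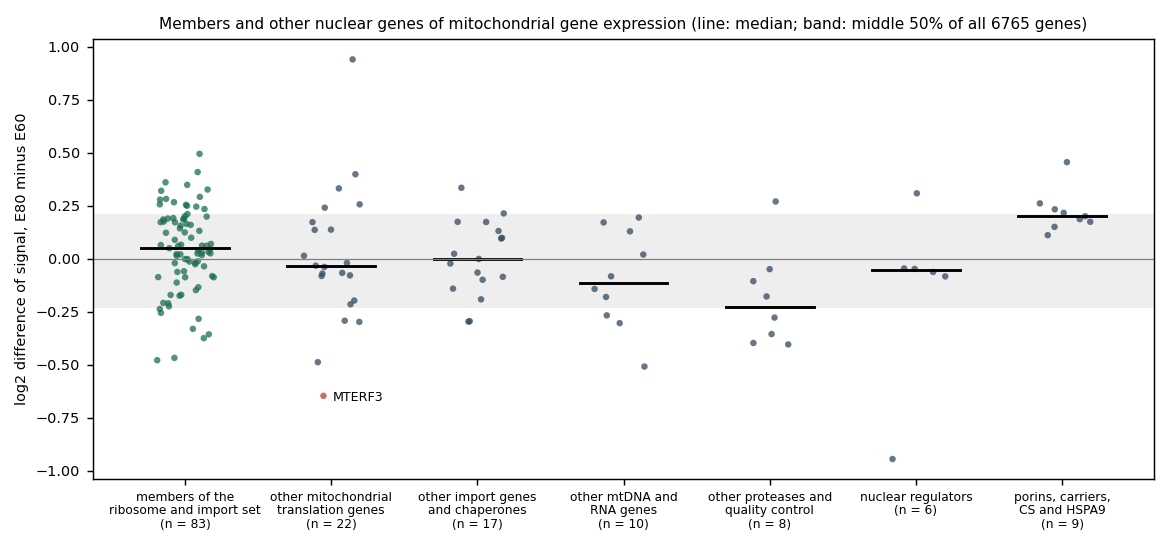
Log2 difference between the days (vertical axis, E80 minus E60) of the 83 members and of the genes in 6 further lists, 1 point a gene, with the median of each list as a line and the middle 50% of all 6765 genes as a grey band. MTERF3 (red) is the only gene drawn that passed the test, and all 9 genes of the list of porins, carriers, CS and HSPA9 lie above 0.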

How the data were processed

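The intensity values deposited by the authors are signals of the MAS5 software, named in the submitters' processing notes, scaled to 1 common trimmed mean. Its version was not stated, and the detection calls of single probe sets and the study's own fold threshold were not used here. Of 24123 probe sets, 124 controls were left out. E80 and E60 were compared on log2 signals (no pseudocount) in R 4.3.3 with limma 3.58.1, using lmFit and eBayes with an intensity trend on 6 arrays without covariates, with Benjamini-Hochberg adjustment. The test was first tried on simulated data. The brightest probe set of a gene has the highest mean log2 signal over the 6 arrays. No filter on low values was used, and 78 of the 83 members lie above the median level of all probe sets.

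Symbols come from the array's annotation, and 82 of the 83 have the same symbol in RefSeq's pig gene table (Sscrofa11.1), which was not matched for MRPS25. No genome or sequence table was used here, so coordinates, sequences and promoter motifs are not given.

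Members and lists were chosen with earlier results of these data known. Named genes are, by rule, the 3 of each role with the smallest p, genes whose probe sets differ in sign with either at an unadjusted p under 0.05, both ends of the range, single genes behind small counts, and list genes that passed. MRPL13, MRPL28, MRPL15, MRPS15, MRPS30, MRPS36, TOMM20, TOMM34, TOMM70, TIMM8A, TIMM9, MRPS9 and the list genes other than MTERF3 were named after their values were seen. Alternatives were quantile normalization, centring on array medians, an offset of 32 on the signals, a filter keeping the brightest 66% of probe sets, other variance models, the mean of a gene's probe sets, and leaving out each array. The number of arrays limits the precision.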

Additional observations from a re-analysis of the deposited data

How the results depend on the processing

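The count of members that passed, 0 in each direction, was 0 in limma under all 13 alternatives, but without the intensity trend 0 and without array 1, 2 or 4 only 1 of all 23999 probe sets passed, so these say nothing about stability. The smallest adjusted p of a member was 0.0501 with median centring and 0.197 without the intensity trend, and at most 1 member (without array 3, with median centring or with the mean of all probe sets of a gene) was past 1.5-fold. At an unadjusted p under 0.05 there were 19 members higher and 1 lower with median centring, and 3 higher and 4 lower without the intensity trend. The share of all probe sets at that p was not counted under these settings. Median centring also moved the median over all probe sets from -0.05 to 0.06. With it 311 probe sets rose and 108 fell at the adjusted threshold, against 224 and 243 as reported. The median difference of the members was 0.16 with median centring and 0.04 to 0.08 with each array left out. Among the genes of the 6 other lists, the count that fell was 0 with quantile normalization, with median centring, without the intensity trend and with the mean of all probe sets of a gene, and 0 to 1 with each array left out, against 1 as reported. The count that rose was 1 (SLC25A5) with median centring and 1 (SLC25A5) with the brightest 66% of probe sets, against 0, and it was 0 to 0 with each array left out. MTERF3 had an adjusted p of 0.0526 with quantile normalization, 0.0585 with median centring and 0.143 without the intensity trend, and 0.622 when its dim probe set was averaged in. Among the 20 named genes followed, 3 turned their sign, and over all members the count above 0 was 45 to 67. TUFM was at 0.088 with median centring. With each array left out it ranged from -0.13 to 0.094, GFM1 from -0.015 to 0.17 and TSFM from -0.052 to 0.069. The cause of these changes was not tested. No paired analysis was possible because the labels give no number that the arrays of both days share. With 3 arrays per day, differences well under 1.5-fold could not be told from 0 for most members.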
